A study of Mus musculus with 32 samples.

Results

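Iron leaves and enters cells through a small set of membrane proteins that handle the metal in 2 oxidation states. Ferroxidases are copper enzymes that oxidise ferrous to ferric iron, and 3 of them were measured: Cp (ceruloplasmin, found in plasma and anchored to membranes), Heph (hephaestin, the enzyme best known from the gut) and Hephl1 (hephaestin like 1, also called zyklopen). Slc40a1 encodes ferroportin, the iron exporter with which ferroxidases work. Tfrc encodes the transferrin receptor that takes up iron-loaded transferrin, Slc11a2 encodes DMT1, which moves ferrous iron out of endosomes, and Steap3 and Steap4 encode metalloreductases. Fth1 and Ftl1 encode the heavy and light chains of ferritin, the iron store. Brown adipose tissue is rich in mitochondria, whose heme and iron-sulfur proteins need iron.

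These 10 genes were taken by name, as all probes that the array design assigns to them and that the deposited expression table holds. They had 22 probes on the array, all 22 were in that table and all 22 passed the filter on dim probes, out of 37306 probes and 24523 gene names measured in all. The set was chosen on the measured change of Hephl1 in total ChREBP KO, so its values in that comparison, and in those that use the same arrays, are given as a description with no test. The other genes and the lists below were also chosen with earlier results of these data known, so counts of calls among them are no independent test.

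Gene expression was measured with Agilent 1-colour arrays in brown adipose tissue of male C57BL6/J mice after a fast of 24 hours and 18 hours of refeeding, during which the drinking water held 20% glucose. The 4 groups had 8 arrays each. Total ChREBP KO mice carry a null Mlxipl gene in the whole body and lack both ChREBP isoforms, the glucose-responsive transcription factor of lipogenic tissues. ChREBPβ KO mice carry a whole-body CRISPR deletion of exon 1b, from which the β isoform starts, and keep the α isoform. Each KO was set against WT littermates of its own line, so the WT groups of the lines are separate. Ages were not given in the sources used here. All values below are log2 of quantile normalized median spot intensity, and levels of different probes are not compared with each other.

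The targeted gene was measured by 3 probes, of which 2 fell in both KOs. On the log2 scale the brightest Mlxipl probe averaged 16.15 ± 0.12 (SD, n = 8) in WT and 13.67 ± 0.15 in KO for the total line. For the ChREBPβ line it averaged 16.34 ± 0.14 in WT and 14.84 ± 0.10 in KO. A_55_P2728555 gave -0.77 and -1.14 (adjusted p = 2.93e-07 and 2.47e-08), while A_55_P2045158, which starts at base 3591 of NM_021455, gave 0.14 and -0.08 (adjusted p = 0.068 and 0.625) and so did not separate KO from WT. All 9 brown adipocyte markers were well above background on every array, with a list mean between 14.68 and 15.66. In total ChREBP KO 6 of the 9 were called, 4 higher and 2 lower, where 44.1% of all genes were called, 22.9% higher and 21.1% lower. The range of the list ran from Elovl3 (-3.16, adjusted p = 1.27e-07) to Dio2 (2.19, adjusted p = 2.43e-06). In ChREBPβ KO 0 of 9 were called, where 2.70% of all genes were. The same shares are the background of the other marker counts in these KOs. The RNA of other cell types differed between groups. The 8 skeletal muscle markers had a mean log2 intensity of 15.47 ± 1.07 in WT of the total line and 9.05 ± 3.01 in WT of the ChREBPβ line, and 0 of 8 were called in either KO. The mean of the 6 liver markers ranged from 5.27 to 13.31 over the arrays, and 0 of 6 were called in any comparison. The 7 measured macrophage markers had a list mean of 9.52 ± 0.33 in WT of the total line, 8.71 ± 0.15 in total ChREBP KO, 8.72 ± 0.24 in WT of the ChREBPβ line and 8.63 ± 0.26 in ChREBPβ KO, and all 7 fell in total ChREBP KO (limma). On single arrays this macrophage mean was 9.10 to 9.93 in WT of the total line and 8.53 to 8.89 in total ChREBP KO. These ranges did not overlap, so fits with this list cannot tell genotype from macrophage RNA there, whether a call is kept or lost. In whole tissue, fewer cells of a type and less RNA per cell cannot be told apart. Of the other lists, 0 of 4 red blood cell markers, 1 of 5 epidermal markers (lower) and 0 of 3 glandular epithelium markers were called in total ChREBP KO, 1 of 4 white adipocyte markers was called (higher), and 0 markers of these lists were called in ChREBPβ KO.

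**Figure D1:**
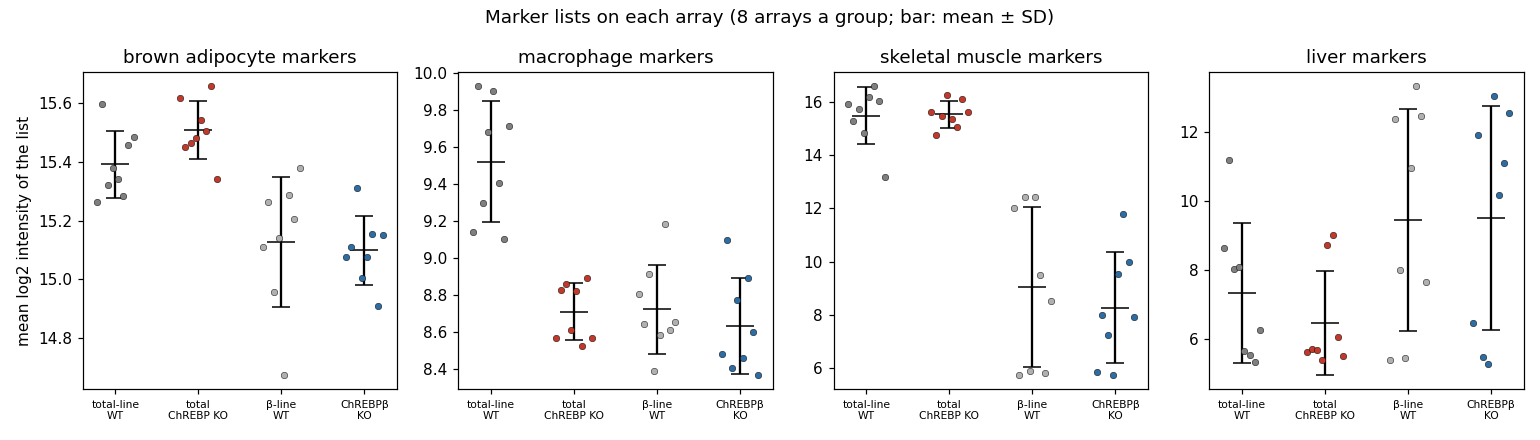
Mean log2 intensity of 4 marker lists (y axis) on each array, by group (x axis), with bars for the mean ± SD of 8 arrays. Macrophage markers averaged 9.52 in WT of the total line and between 8.63 and 8.72 in the other groups, and skeletal muscle markers averaged 15.47 and 15.52 in the total line and 9.05 and 8.26 in the ChREBPβ line.

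Hephl1 was detected in every group except total ChREBP KO, where its spot sat at the background on most arrays. Its 1 probe (A_66_P137676, NM_001164797) lies on chromosome 9, mm9 positions 14856410 to 14856469, on the minus strand. Which exon or untranslated region a probe falls in is not given here, since no annotation of that build was used. The 250 bases before its transcription start are shown because ChREBP binds DNA through E-boxes. RefSeq for GRCm38.p6 places them at chr9:15112109-15112358 on the minus strand. Capitals mark the single match to TATAAA, here on the opposite strand.
Hephl1 promoter: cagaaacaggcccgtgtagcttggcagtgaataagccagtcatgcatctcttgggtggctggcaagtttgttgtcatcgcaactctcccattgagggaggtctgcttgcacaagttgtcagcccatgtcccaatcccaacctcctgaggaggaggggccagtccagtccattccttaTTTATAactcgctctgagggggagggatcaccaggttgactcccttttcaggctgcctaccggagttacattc
The letters CACGTG, a palindromic E-box, do not occur in this window, nor in any of the 13 promoter windows of 250 bases listed for 7 of the 10 genes. They occur in 6.02% of 32851 such windows over all genes. Paired copies of these letters with a short gap, searched by exact match, occur in 0 of the 32851 windows. That paired search therefore cannot tell any gene from another. Only exact matches within 250 bases were sought, and binding of ChREBP to these genes was not tested. TATAAA, searched on both strands, occurs in 12.4% of all windows and in 4 of the 13, those of Hephl1, Cp, Fth1 and Steap4.

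The Hephl1 spot of WT mice of the total line had a median pixel intensity from 838 to 3013 (median 1509), over a local background of 16 to 19. Total ChREBP KO mice gave 17 to 86 (median 23.75), over a local background of 15 to 22. Only 3 of the 8 total ChREBP KO arrays were well above background, against 8 of 8 in each other group. Mice of the ChREBPβ line lay between, with WT from 383 to 1584 (median 792.25) and KO from 183 to 819.5 (median 451). Replicate 7 of total ChREBP KO, at 86, stood above the other 7 arrays of its group and below every array of the other groups.

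**Figure D2:**
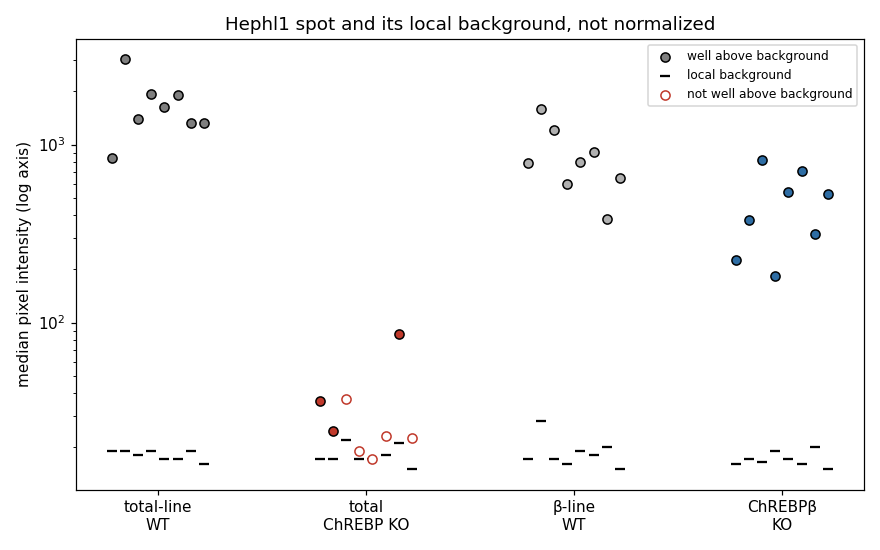
Median pixel intensity of the Hephl1 spot before normalization (log y axis) on each array by group (x axis), with filled points for spots well above background, open points for the others and dashes for the local background. Total ChREBP KO arrays lay between 17 and 86, and all arrays of the other groups at 183 or more.

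After normalization Hephl1 was 10.51 ± 0.56 (SD, n = 8) in WT of the total line and 4.87 ± 0.69 in total ChREBP KO, a log2 difference of -5.64 (SE 0.34). Since 5 of the 8 KO arrays were not well above background, the size of this difference depends on how background is treated: it was -7.54 with Agilent's background-subtracted signal and -4.44 with normexp correction. The order of the groups was total ChREBP KO, ChREBPβ KO at 8.67 ± 0.83, ChREBPβ-line WT at 9.60 ± 0.74 and total-line WT. Only total ChREBP KO did not overlap with the others. ChREBPβ KO was lower than its WT by 0.94 on the log2 scale (SE 0.34, 95% interval -1.62 to -0.25), with 7 of 8 KO arrays below the WT mean, which did not pass the adjustment over all probes (limma, adjusted p = 0.151, unadjusted p = 0.00913). Within the 4 wash batches this difference ranged from -3.10 to 0.63 and was positive in 1. The lowest value set 2 KO arrays against 1 WT array, and the highest set 3 against 1, which was replicate 7. Without replicate 7 of WT of the ChREBPβ line the difference over all batches passed (adjusted p = 0.0422). It was -0.70 with wash batch in the fit and -0.42 with slide in the fit.

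Among 16892 other named genes, those whose 4 group means followed Hephl1 most closely were Adcy10 (soluble adenylyl cyclase), Ttc25, Gm35986, 2310069B03Rik and Pth1r (the parathyroid hormone receptor), with root mean square distances between 0.19 and 0.59 after centring. Adcy10 had group means of 11.50 and 6.37 in total-line WT and KO and 10.84 and 9.76 in the ChREBPβ line. The fall in total ChREBP KO, by which Hephl1 was chosen, weighs most in this distance, so the likeness is a description with no test. In that group the means of Gm35986 (4.99) and 2310069B03Rik (4.65) were as low as that of Hephl1 (4.87), which was near background. A different likeness uses the scatter within groups, over the 24 arrays outside total ChREBP KO. By Pearson's r of the deviations from the group means, which share array and batch, those close to it included Rassf2 (0.87), Wbp2 (0.82), Adig (0.81) and Sqle (0.81), which encodes squalene epoxidase of cholesterol synthesis. Among the other 9 genes of iron handling, r with Hephl1 lay between -0.41 for Slc40a1 and 0.65 for Cp.

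The other ferroxidases moved in opposite directions in total ChREBP KO. Heph was higher and Cp lower, while in ChREBPβ KO neither passed the test. Over the 9 genes other than Hephl1, 7 were called in total ChREBP KO at an adjusted p under 0.05 (4 higher and 3 lower), where 44.1% of all 24523 genes were called, 22.9% higher and 21.1% lower. Their median log2 fold change was -0.06, beside 0.01 over all genes. Since these genes were chosen with earlier results known, the counts are descriptions. In ChREBPβ KO 1 of the 10 genes was called, where 2.70% of all genes were (1.37% higher and 1.33% lower).

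**Figure D3:**
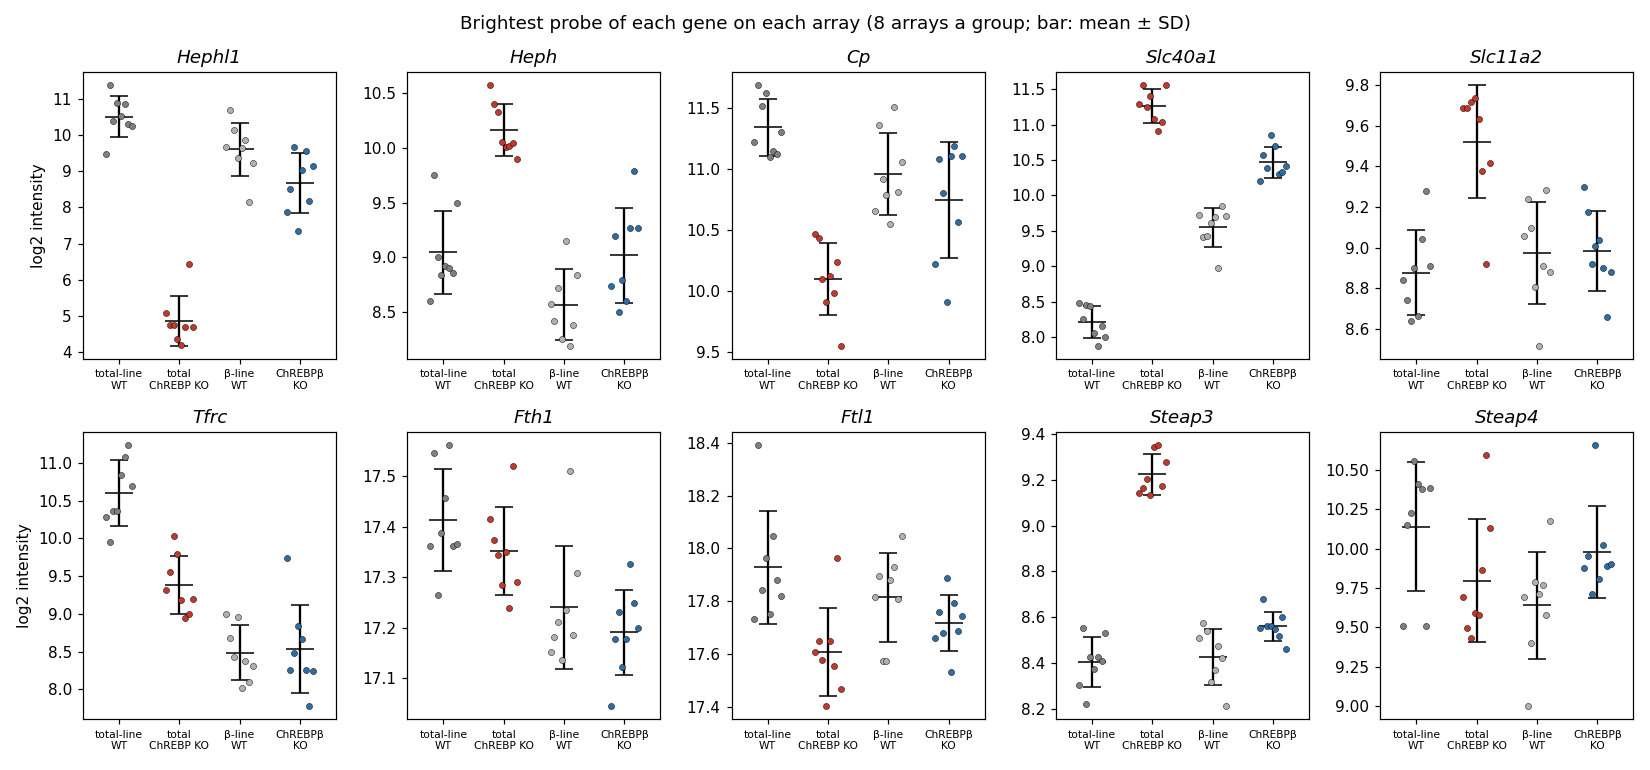
Log2 intensity (y axis) of the brightest probe of each of the 10 genes on each array, by group (x axis), with bars for the mean ± SD of 8 arrays; the y axes differ between panels and do not start at 0. Hephl1 lay between 4.19 and 6.45 in total ChREBP KO, and the 4 groups of Slc40a1 did not overlap.

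Heph on chromosome X was measured by 3 probes, of which A_55_P2488639 and A_55_P1994194 carry the same sequence (mm9 93769721 to 93769780) and are technical repeats. The brightest, A_55_P2488639, ranged from 8.60 to 9.75 with a median of 8.91 in total-line WT and from 9.90 to 10.58 with a median of 10.05 in total ChREBP KO, and the groups did not overlap. The difference was 1.12 (SE 0.17, adjusted p = 1.78e-06), or 2.17-fold. A_55_P1994190, a dimmer probe assigned to another transcript record (NM_181273), gave 0.46 (adjusted p = 4.21e-06). In ChREBPβ KO the brightest probe averaged 9.02 ± 0.43 against 8.57 ± 0.32 in WT, with overlap. The difference was 0.45 (95% interval 0.11 to 0.79, adjusted p = 0.17). It was positive in all 4 wash batches, each with 1 to 3 arrays of a group. The effects of the KOs differed by -0.67 (adjusted p = 0.0375). This difference of effects lost its call with wash batch in the fit (adjusted p = 0.0624), with slide in the fit (0.0909), with the processed signal (0.0576), with no filter on dim probes (0.0522), and without any one of 15 of the 32 arrays (adjusted p 0.0528 to 0.0651).

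Cp on chromosome 3 was measured by 5 probes, all lower in total ChREBP KO. One probe is shown to identify what was measured, and it starts at base 1803 of transcript NM_007752 (mm9 chromosome 3, 19874934 to 19874993, plus strand).
A_55_P2626135: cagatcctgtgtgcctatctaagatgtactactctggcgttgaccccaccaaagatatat
The brightest probe, A_55_P2111302, ranged from 11.10 to 11.69 (median 11.27) in total-line WT and from 9.55 to 10.47 (median 10.11) in total ChREBP KO, with no overlap. The log2 difference was -1.24 (SE 0.17, adjusted p = 2.41e-07), or 2.37-fold. Over the 5 probes the log2 fold change was between -1.24 and -0.53, with adjusted p of 7.75e-05 or less. In ChREBPβ KO the brightest probe gave -0.21 (95% interval -0.55 to 0.13, adjusted p = 0.672), and ChREBPβ KO ranged from 9.91 to 11.19. The KO effects differed by 1.03 (adjusted p = 0.00127). Cp is also made by macrophages and liver, and macrophage markers fell with it. With the macrophage list of each array in the fit Cp was -0.92 in total ChREBP KO (adjusted p = 0.00718), and its KO effects then differed by 0.74 (adjusted p = 0.0750). With the liver list in the fit it was -1.17 (adjusted p = 2.79e-08).

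Slc40a1, the exporter, was by its brightest probe called in both KOs, and it rose in each. Among the brightest probes of the 9 genes tested in both it was the one so called, while 1 dimmer probe of Slc11a2, described below, was also called in both. Its brightest probe, A_51_P389988 on chromosome 1 (NM_016917, mm9 45965255 to 45965314, minus strand), ranged from 7.88 to 8.49 (median 8.21) in total-line WT and from 10.91 to 11.56 (median 11.28) in total ChREBP KO. Its range was 8.97 to 9.85 (median 9.65) in WT mice of the ChREBPβ line and 10.21 to 10.85 (median 10.40) in ChREBPβ KO. All 4 groups were thus apart from each other, in the order total-line WT, ChREBPβ-line WT, ChREBPβ KO and total ChREBP KO. The rise was 3.05 (SE 0.12, adjusted p = 5.61e-20), or 8.27-fold, in total ChREBP KO, and 0.92 (SE 0.12, adjusted p = 8.68e-06), or 1.89-fold, in ChREBPβ KO. The difference between these effects was -2.13 (95% interval -2.46 to -1.79, adjusted p = 1.44e-11). The WT groups also differed, by 1.33 (adjusted p = 2.41e-10), with WT of the ChREBPβ line higher.

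The second Slc40a1 probe, A_55_P2620111, reads a different transcript (ENSMUST00000186755) and was near background, with 3 of 8 total-line WT arrays well above it. It gave 1.80 in total ChREBP KO (adjusted p = 4.23e-06) and 0.31 in ChREBPβ KO (adjusted p = 0.727). Within the 4 wash batches the difference of the brightest probe lay between 2.91 and 3.23 in total ChREBP KO and between 0.63 and 1.12 in ChREBPβ KO. Each batch held 1 to 3 arrays of a group. Macrophages are rich in ferroportin. With the macrophage list in the fit the rise was 2.86 in total ChREBP KO (adjusted p = 1.64e-13), where 7 of 7 macrophage markers fell, and 0.90 in ChREBPβ KO (adjusted p = 1.49e-05), where 0 of 7 were called.

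Tfrc, the uptake receptor, fell in total ChREBP KO and did not pass the test in ChREBPβ KO. One of its 2 probes starts at base 1228 of transcript NM_011638 (mm9 chromosome 16, 32620470 to 32620529, plus strand), and is shown because the probes differed in size of effect.
A_65_P06446: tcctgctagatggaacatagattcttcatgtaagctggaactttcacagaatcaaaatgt
The brightest probe, A_52_P228236, starts at base 4288 of the same transcript and ranged from 9.95 to 11.23 (median 10.53) in total-line WT and from 8.94 to 10.03 (median 9.26) in total ChREBP KO, with a small overlap. It fell by 1.22 on the log2 scale (SE 0.21, adjusted p = 1.97e-05), while A_65_P06446 fell by 0.47 (adjusted p = 0.0445). In ChREBPβ KO the difference was 0.05 (95% interval -0.38 to 0.49, adjusted p = 0.966), and the KO effects differed by 1.27 (adjusted p = 0.00204). On A_65_P06446 they differed by 0.50, which did not pass (adjusted p = 0.196). A wider gap lay between the lines. WT of the ChREBPβ line was lower than WT of the total line, with a log2 difference of -2.12 (adjusted p = 3.16e-09), and its 8 arrays (8.02 to 8.99) did not overlap with the total-line WT arrays. Skeletal muscle markers differed between the same groups, and with the muscle list in the fit the value was -2.46 (adjusted p = 1.76e-05). With the macrophage list in the fit it was -2.37 (adjusted p = 5.84e-06), and the fall in total ChREBP KO was -1.48 (adjusted p = 0.00132).

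The probes of Slc11a2 on chromosome 15 disagreed in direction. The brightest, A_52_P196476, is assigned to transcript variant NM_001146161, and the other 3 to NM_008732. A_52_P196476 was 8.64 to 9.28 (median 8.87) in total-line WT and 8.92 to 9.74 (median 9.66) in total ChREBP KO, a rise of 0.65 (SE 0.11, adjusted p = 2.32e-05) in which all 8 KO arrays lay above the WT mean. A_55_P2830119 rose by 0.40 (adjusted p = 0.000571), and A_52_P254298 gave 0.19 (adjusted p = 0.0543). A_51_P388737, closer to the end of NM_008732, fell in both KOs, with -0.43 in total ChREBP KO (adjusted p = 6.24e-06) and -0.31 in ChREBPβ KO (adjusted p = 0.00839), and its groups did not overlap in either line. In ChREBPβ KO the brightest probe gave 0.01 (95% interval -0.22 to 0.24, adjusted p = 0.988). The direction of Slc11a2 as a gene was therefore not set by these probes.

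The metalloreductases differed from each other. Steap3, the endosomal reductase that works with the transferrin cycle, was 8.22 to 8.55 (median 8.42) in total-line WT and 9.13 to 9.35 (median 9.19) in total ChREBP KO (A_55_P2096887, mm9 chromosome 1, 122123244 to 122123303, minus strand). The groups were apart, and the rise was 0.82 (SE 0.05, adjusted p = 3.03e-14), or 1.76-fold. In ChREBPβ KO all 8 arrays lay above the WT mean, but the difference of 0.13 (95% interval 0.03 to 0.24) did not pass (adjusted p = 0.208). The KO effects differed by -0.68 (adjusted p = 1.59e-08).

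Steap4, a reductase of adipocytes and macrophages, was 9.51 to 10.56 (median 10.30) in total-line WT and 9.43 to 10.59 (median 9.64) in total ChREBP KO, a difference of -0.34 (95% interval -0.69 to 0.01, adjusted p = 0.108). It passed without any one of 3 arrays, replicates 1 and 7 of WT and replicate 7 of KO (-0.46 to -0.43, adjusted p 0.0223 to 0.0386), and was 0.05 with the macrophage list in the fit (adjusted p = 0.911). In ChREBPβ KO it averaged 9.98 ± 0.29 against 9.64 ± 0.34 in WT, a difference of 0.34 (95% interval -0.01 to 0.69, adjusted p = 0.389), with all 8 KO arrays above the WT mean. Neither effect passed on its own, and the difference between them was 0.68 (adjusted p = 0.0382). That call was lost with the macrophage list in the fit (0.33, adjusted p = 0.501), with the processed signal (0.0505), with normexp correction (0.0517), with no filter on dim probes (0.0521) and without any one of 15 of the 32 arrays (adjusted p 0.0504 to 0.0675).

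The ferritin chains changed little by their brightest probes, which lie near the top of the array's range. Probes of both genes can share signal with processed copies of these genes, so their values are uncertain. Ftl1 was measured by 2 probes on chromosome 7, and the ends of 1 of them lie 482 bases apart in the genome (mm9 52714014 to 52714495, minus strand), so its 60 bases are not contiguous there.
A_55_P1983959: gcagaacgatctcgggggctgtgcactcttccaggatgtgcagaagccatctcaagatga
The brightest Ftl1 probe, A_55_P2851873, was 17.73 to 18.39 (median 17.86) in total-line WT and 17.40 to 17.96 (median 17.59) in total ChREBP KO. It fell by 0.32 on the log2 scale (SE 0.08, adjusted p = 0.00211), and A_55_P1983959 fell by 0.57 (adjusted p = 0.000515), with overlap between the groups for both. The call on the brightest probe was lost with slide in the fit (-0.24, adjusted p = 0.0670) and with the macrophage list in the fit (-0.10, adjusted p = 0.603). Fth1 (A_52_P49601, mm9 chromosome 19, 10059485 to 10059544) was 17.41 ± 0.10 in total-line WT and 17.35 ± 0.09 in total ChREBP KO, a difference of -0.06 (95% interval -0.17 to 0.05, adjusted p = 0.373). With 75th percentile scaling in place of quantile normalization Fth1 was lower, by -0.21 with the processed signal (adjusted p = 0.00026) and -0.22 with the median intensity (adjusted p = 0.000314). In ChREBPβ KO the differences were -0.05 for Fth1 (95% interval -0.16 to 0.06, adjusted p = 0.787) and -0.10 for Ftl1 (95% interval -0.27 to 0.07, adjusted p = 0.705).

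**Figure D4:**
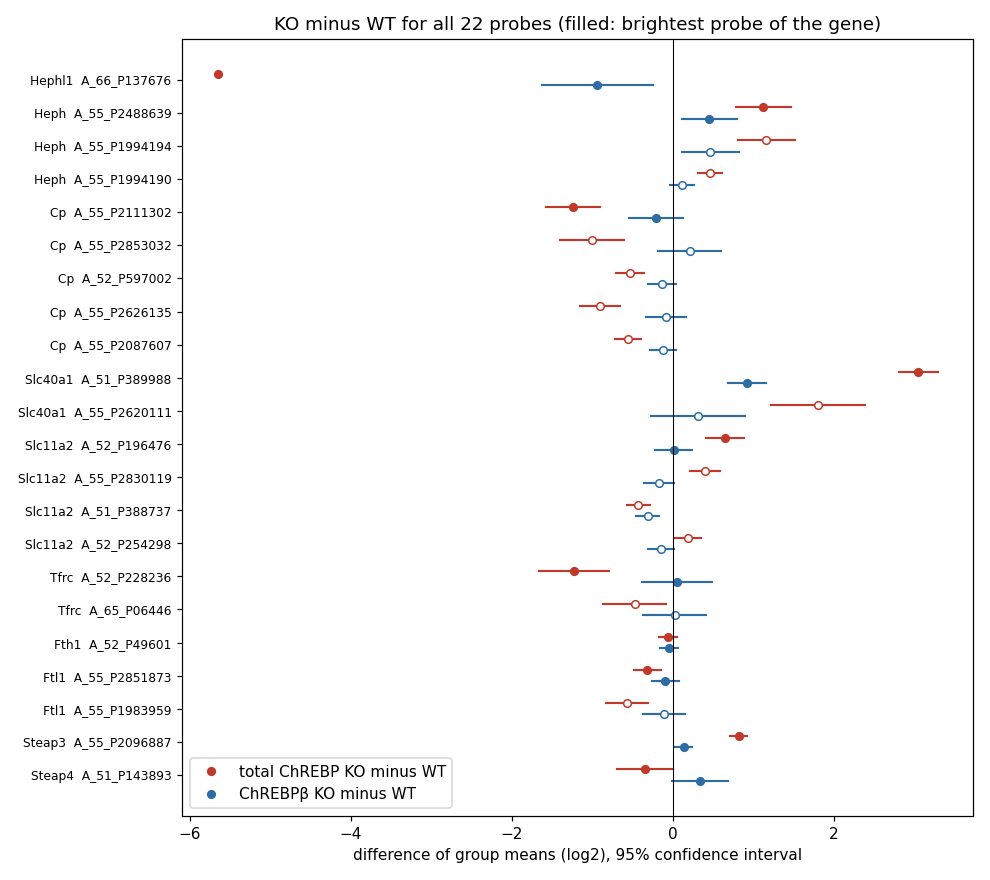
KO minus WT (x axis, log2) for each of the 22 probes (y axis), with 95% confidence intervals from limma, filled points for the brightest probe of a gene and open points for the others; Hephl1 in total ChREBP KO has no interval because it was not tested. The brightest Slc40a1 probe lies at 3.05 and 0.92, Hephl1 at -5.64 and -0.94, and the probes of Slc11a2 lie on both sides of 0.

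Between the KO effects, 7 of the 9 genes differed (3 with a positive and 4 with a negative difference), where 25.2% of all genes were called, 12.2% and 13.0% in these directions. By their brightest probes Heph, Cp, Slc40a1, Slc11a2, Tfrc and Steap3 each had the larger effect in total ChREBP KO, and Steap4 had opposite signs. On the Slc11a2 probe A_51_P388737 the effects differed by 0.11 (adjusted p = 0.444). Only 4 of the 9 genes were called with the macrophage list in the fit, where 16.3% of all genes were, and the calls on Cp, Steap4 and Slc11a2 (-0.57, adjusted p = 0.0551) were lost. Fth1 and Ftl1 did not pass (adjusted p = 0.931 and 0.177). The KO contrasts use separate mice, while the comparison of WT groups below shares its arrays with both.

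Between the WT groups, 5 of the 9 genes differed by their brightest probes, where 38.9% of all genes were called, 24.8% higher and 14.1% lower in the ChREBPβ line. Slc40a1 was higher in WT of the ChREBPβ line, and Tfrc (-2.12), Steap4 (-0.50, adjusted p = 0.0200), Heph (-0.48, adjusted p = 0.0226) and Fth1 (-0.17, adjusted p = 0.00981) were lower. With the skeletal muscle list in the fit 2 calls were left, and likewise 2 with the macrophage list, Slc40a1 and Tfrc in both cases, where 15% and 19.4% of all genes were called. Hephl1 was lower in WT of the ChREBPβ line by a value of -0.91, and by -0.17 with the muscle list in the fit. Cp did not pass by its brightest probe (-0.38, adjusted p = 0.0641), but passed in 7 of 48 alternatives. Its probe A_55_P2853032 was lower (-0.94, adjusted p = 0.000237), as was A_55_P2830119 of Slc11a2 (-0.30, adjusted p = 0.00963). The other probes of Cp and Slc11a2 did not pass between the WT groups. Line and marker lists move together here, and line and RNA of other cell types cannot be told apart.

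Beyond these 10 genes, lists of iron, copper and heme genes, also chosen with earlier results known, held 72 names. Of these, 66 had a probe that passed the filter. In total ChREBP KO 41 of the 66 were called (23 higher and 18 lower), or 62.1% beside 44.1% of all genes, with a median log2 fold change of 0.06 beside 0.01. In ChREBPβ KO 1 of 66 was called, or 1.52% beside 2.70% of all genes. With the macrophage list in the fit 20 of 66 were called in total ChREBP KO, where 24% of all genes were. By list these were 3 of 10 uptake, 1 of 3 storage, 2 of 8 sensing, 2 of 6 copper, 6 of 19 heme and 6 of 20 mitochondrial genes. With slide in the fit 33.5% of all genes were called in total ChREBP KO. In that fit 6 of 10 uptake, 1 of 3 storage and 2 of 8 sensing genes were called. Of the other lists, 3 of 6 copper, 12 of 19 heme and 5 of 20 mitochondrial genes were called. Without these terms 44.1% of all genes were called in total ChREBP KO, the background of each count by list below.

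The gene called in ChREBPβ KO was Hfe, whose protein binds the transferrin receptor and is mutated in hereditary hemochromatosis. It was 11.32 to 11.67 (median 11.45) in ChREBPβ KO and 10.72 to 11.37 (median 11.12) in its WT group, a rise of 0.40 (SE 0.08, adjusted p = 0.00288) with overlap between the groups. With slide in the fit it was 0.36 and did not pass (adjusted p = 0.148). In total ChREBP KO it was 11.54 to 11.88 against 10.54 to 10.84 in WT, a rise of 0.98 (SE 0.08, adjusted p = 8.12e-12) with no overlap. The effects on Hfe differed by -0.57 (adjusted p = 0.000269).

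In the uptake and reduction list, 7 of 10 measured genes were called in total ChREBP KO, 2 higher and 5 lower. Beside Hfe, Lrp1, an endocytic receptor that also takes up heme-hemopexin, rose by 0.62 (adjusted p = 2.66e-08). Tfr2, the iron-sensing transferrin receptor of liver and erythroid cells, fell by 1.07 on the log2 scale (SE 0.29, adjusted p = 0.00346), and Steap1 fell by 0.60 (adjusted p = 0.000564). Tfr2 varied widely in the ChREBPβ line (9.42 ± 0.86 in WT), where liver markers also varied, and in total ChREBP KO it was -0.97 with the liver list in the fit (adjusted p = 0.00338). With the macrophage list it was -1.07 (adjusted p = 0.0947).

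Of the 3 storage and chaperone genes 1 was called. Pcbp2, an RNA-binding protein that also carries iron to ferritin, fell by 0.57 (adjusted p = 9.59e-09), and its groups did not overlap. Of 8 genes of iron sensing and hepcidin control 4 were called, 1 higher and 3 lower. Aco1, the iron regulatory protein that is also cytosolic aconitase, rose by 0.33 (adjusted p = 0.00126). Bmp6, which drives hepcidin in liver, fell by 0.30 (adjusted p = 0.00970), Epas1, the hypoxia factor HIF2α, fell by 0.26 (adjusted p = 0.00916) and Fbxl5, which marks iron regulatory protein 2 for degradation, fell by 0.25 (adjusted p = 3.04e-05). Epas1 also passed with the macrophage list in the fit (-0.43, adjusted p = 0.0108), while Aco1 (0.21, adjusted p = 0.235), Bmp6 (-0.36, adjusted p = 0.0724) and Fbxl5 (-0.17, adjusted p = 0.0825) did not. With slide in the fit Aco1 (0.43, adjusted p = 0.00259) and Fbxl5 (-0.215, adjusted p = 0.00911) passed. Epas1 (-0.19, adjusted p = 0.297) and Bmp6 (-0.30, adjusted p = 0.087) did not pass in that fit.

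The copper list was examined because ferroxidases carry copper, and 3 of its 6 genes were called. Ccs, the copper chaperone of superoxide dismutase, rose by 0.75 (SE 0.07, adjusted p = 4.38e-10). Slc31a1, the copper importer, fell by 0.41 (adjusted p = 3.03e-05), and Atp7b, a copper pump, rose by 0.24 (adjusted p = 0.0376), a call lost with the macrophage list in the fit (0.25, adjusted p = 0.243).

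The heme list had 14 of 19 genes called in total ChREBP KO, 10 higher and 4 lower, with a median of 0.17 beside 0.01 over all genes, and 0 of 19 in ChREBPβ KO by limma. Hmox1, heme oxygenase 1, which frees iron from heme, rose from 10.65 ± 0.46 to 11.88 ± 0.59, by 1.23 (SE 0.20, adjusted p = 7.18e-06), and by 1.47 with the macrophage list in the fit (adjusted p = 0.000746). Alas1, the rate-limiting enzyme of heme synthesis outside erythroid cells, rose by 0.92 (SE 0.14, adjusted p = 1.91e-06) with no overlap, and by 0.51 with the macrophage list (adjusted p = 0.0605). Blvra, biliverdin reductase A, which acts after heme oxygenase, rose by 0.83 (adjusted p = 1.63e-07). Cd163, the haemoglobin scavenger receptor of macrophages, fell by 0.99 (adjusted p = 4.95e-06), and it is itself 1 of the 7 macrophage markers. With that list in the fit it was -0.25 (adjusted p = 0.354).

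Of 20 genes of mitochondrial iron and iron-sulfur cluster assembly 12 were called in total ChREBP KO, 8 higher and 4 lower, with small changes between -0.36 and 0.36. Glrx5, which hands on new clusters, rose by 0.36 (adjusted p = 6.14e-05), Ciao1 of the cytosolic machinery rose by 0.29 (adjusted p = 2.51e-06) and Fdx1l, a ferredoxin of cluster assembly, rose by 0.26 (adjusted p = 1.72e-05). Nubpl, needed for complex I assembly, fell by 0.36 (adjusted p = 0.000587). In ChREBPβ KO 0 of the 20 were called, and their values lay between -0.10 and 0.10.

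**Figure D5:**
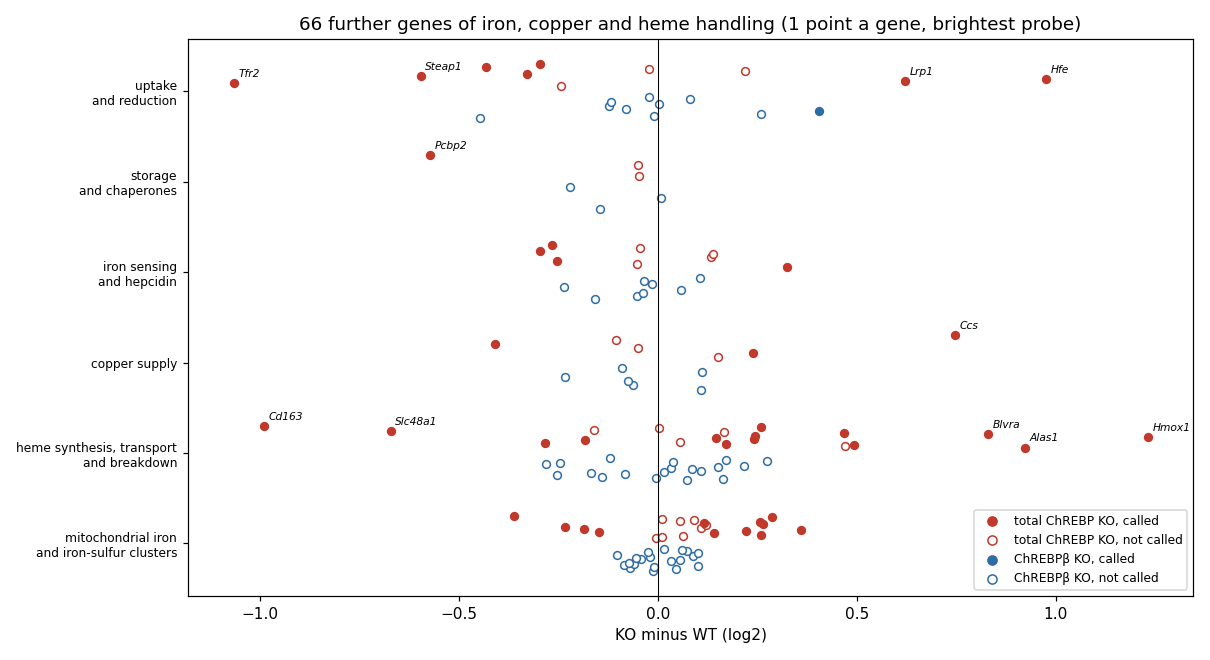
KO minus WT (x axis, log2) for the 66 further genes by list (y axis), with red points for total ChREBP KO, blue points for ChREBPβ KO, and filled points for genes called by limma; genes beyond 0.55 in total ChREBP KO are named. The values span -1.07 to 1.23 in total ChREBP KO and -0.45 to 0.40 in ChREBPβ KO.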

How the data were processed

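The members and gene lists were chosen with earlier results of these data known. Brown adipose RNA of 32 mice (8 a group, grouped by the labels) was hybridised to Agilent 1-colour arrays. Per the file headers, the spot intensity was read with Feature Extraction 10.10.1.1 and was not normalized between arrays. The deposited table holds log2 values, which the authors filtered, normalized by quantiles and summarised as the median of repeated probes. Following those methods, 39985 of 59305 spots were kept, those that 26 arrays, or 6 arrays of 1 group, read as found, positive and well above background, and median intensities were log2 transformed and quantile normalized. The result differed from the deposited log2 values by 0.00298 on average.

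Limma 3.58.1 (R 4.3.3; lmFit, eBayes) was fitted to all arrays with 4 group means. P values are two-sided, Benjamini-Hochberg adjusted over all 37306 probes. Each gene is given by the probe with its highest mean. The replicates are arrays the labels list as separate samples, and p values measure the spread between them. Arrays have no read depth: the share of spots that each array read as well above background was 64.4% to 71.1%, 0 were saturated, and the number of arrays limits the precision. Wash batch (4) and slide (15) come from the labels and headers.

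Named were all 10 genes and their probes, every list gene called in ChREBPβ KO, up to 4 list genes with the largest change among those called in total ChREBP KO per list, the genes most like Hephl1 by group means and by scatter, and Mlxipl. One gene that this rule names is not reported here. The script was tested on simulated data. Alternatives were Agilent's processed signal and median intensity scaled to the 75th percentile, normexp background correction (offset 50), the deposited table, no filter, a filter on all arrays, wash batch, slide or replicate number as blocks, array weights, own groups only, the mean over probes, the muscle list as a covariate, and leaving out each array. Macrophage and liver lists as covariates were chosen after seeing the data. Tf, Flvcr1 and Flvcr2 were matched as Trf, Mfsd7b and Mfsd7c, and Ftl2 was not matched. Promoters are from RefSeq tables.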

Additional observations from a re-analysis of the deposited data

Results flagged for a closer look

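Of 40 groups of 8 arrays (10 genes in 4 groups), 5 held an array that stood apart from the others by more than Dixon's 95% critical gap, and chance flags about 1 group in 20. Replicate 7 of total ChREBP KO did so for Hephl1 (6.45, next 5.08), Slc11a2 (8.92, next 9.38) and Ftl1 (17.96, next 17.65). Replicate 6 of WT of the ChREBPβ line did so for Fth1 (17.51, next 17.31) and replicate 4 of ChREBPβ KO for Steap4 (10.66, next 10.02). The groups share arrays between genes and are not independent, so the count of flags is a description with no test. For Hephl1 in total ChREBP KO, the values that led the choice of the set, only 3 of 8 spots were well above background.

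The KO effects differed between the lines by limma for Heph (-0.67), Cp (1.03), Slc40a1 (-2.13), Slc11a2 (-0.64), Tfrc (1.27), Steap3 (-0.68) and Steap4 (0.68), each as the ChREBPβ KO effect minus the total ChREBP KO effect on the log2 scale.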

How the results depend on the processing

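Members called in total ChREBP KO stayed within 1.5 times of 7 under every alternative run. Of 1906 member values under the alternatives, 1801 kept direction and, where tested, side of the threshold. These include values of Hephl1 that have no test and so no side: 45 in total ChREBP KO, 44 for the difference between KO effects and 46 between WT lines. Most of the alternatives, 32, left out 1 array. Of the remaining values, 34 changed sign with no call on either side, 52 lost and 14 gained a call, and 0 reversed while called. Another 5 without a test moved, all of Hephl1: -7.54 (processed signal) and -4.44 (normexp) in total ChREBP KO, 6.53 and 3.55 for the difference between KO effects, and -0.17 between WT lines with the muscle list. The cause was not tested.

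With the macrophage list in the fit 20 of 66 pathway genes were called in total ChREBP KO (41 without it), 4 members between the KO effects (7 without it) and 2 between WT lines (5 without it), and with the muscle list 2 between WT lines. Of all genes 24%, 16.3% and 19.4% were called in these comparisons with the macrophage list, and 15% between WT lines with the muscle list. For ChREBPβ KO the pathway count of 1 became 0 with slide as a fixed block, 3 with normexp or array weights, and 2 with the processed signal, the median intensity at the 75th percentile, the deposited table, detection on all arrays, wash batch, slide as a random block, the mean of probes or the macrophage list.

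Leaving out 1 array gave 7 to 8 members in total ChREBP KO, 1 to 2 in ChREBPβ KO, 5 to 7 between the KO effects and 4 to 6 between WT lines, and 37 to 43 pathway genes in total ChREBP KO. In ChREBPβ KO it gave 1 to 5 pathway genes. The count was 5 without replicate 7 of WT of the ChREBPβ line, which also gave the 2 members, 4 without WT replicate 5 or KO replicate 3 of that line, 3 without replicate 7 of total ChREBP KO, and 2 without total-line WT replicate 2 or 6 or ChREBPβ KO replicate 7 or 8. The counts with 1 array left out have no share of all genes beside them and are descriptions.

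Same-numbered arrays deviated with r from -0.30 to 0.08 in the total line and -0.20 to 0.53 in the ChREBPβ line, over 0.1 in 0 of 8 and 6 of 8 pairs. Since not every pair was over 0.1, the numbers were not taken to pair samples. With the replicate block 7, 1, 7 and 5 members were called in total ChREBP KO, ChREBPβ KO, between KO effects and between WT lines. Of all genes 44.7%, 2.99%, 25.7% and 39.7% were called in that fit, in the same order. The KOs had 42 and 2 pathway genes called in it. The best correlation was with the own number in 0 and 1 of 8 pairs. Spots near background, as Hephl1 in total ChREBP KO, limit the size of a fold change.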
